A study of Mus musculus with 12 samples.

Results

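The taste receptor genes of the T1R family and the genes of taste transduction and tuft cells were read in the ileum of mice on 4 diets. The 10 genes were chosen by name: Tas1r1, Tas1r2, Tas1r3, Gnat3, Gng13, Plcb2, Trpm5, Pou2f3, Dclk1 and Il25. All 10 were listed among the 44205 genes of the expression table. The mice were C57BL/6, 16 weeks old, and had been on their diet for 10 weeks from the age of 6 weeks, with 3 mice and 1 library per mouse in each group. Water and normal fat made up the control diet (NF, called ND in the study). The other groups had a 23% w/v sugar drink in place of water (NF_Sugar), a diet with 60% of its energy from fat (HF), or both at once (HF_Sugar, the Western diet, WD). Each library came from RNA of whole ileum tissue, so a gene of a rare cell is read among RNA of all other cells, and fewer cells of a type and less RNA per cell cannot be told apart.

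The T1R receptors are G protein-coupled receptors that work in pairs. TAS1R2 with TAS1R3 senses sweet compounds, and TAS1R1 with TAS1R3 senses amino acids (umami). In taste cells the receptor acts through the G protein subunits gustducin (Gnat3) and Gng13 on the phospholipase Plcb2, which raises calcium and opens the cation channel Trpm5. Tuft cells, rare chemosensory cells of the gut lining, use much of the same chain. Pou2f3 is the transcription factor they depend on, Dclk1 is a kinase used to mark them, and they release IL-25 (Il25), which activates type 2 innate lymphoid cells.

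Expression was taken to be in RPKM, reads scaled to exon length and to library depth, a unit inferred from the values. The steps between low values gave the depth of each library, 15.3 to 39.0 M reads, of which 73.1% to 81.2% fell in genes. On the first principal component, which held 39.5% of the variance, 4 libraries stood apart from the other 8: replicate 1 of NF_Sugar and replicate 2 of NF, HF and HF_Sugar. The share of reads in genes was 73.1% to 73.7% for those 4 and 76.9% to 81.2% for the other 8. Genes reaching 0.5 RPKM in at least 3 libraries were tested, which 17662 genes did. Of the 10 genes, 5 reached that level, namely Gng13, Plcb2, Trpm5, Dclk1 and Tas1r3, the last through its 3 HF_Sugar libraries alone. All 10 were kept, so 17667 genes were tested.

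The 3 receptor genes lie on chromosome 4. The starts of the T1R genes are shown because the 3 paralogs were not read alike. Tas1r3 was read higher in the HF_Sugar libraries than in all others, though no comparison called it after adjustment over all genes. Its partners were close to the detection limit. Each window runs from 250 bases before to 50 bases after the annotated start, from RefSeq on GRCm38.p6, and is printed 5′ to 3′ on the strand of the gene. Capitals mark the letters TGCAAAT, the core of the octamer that POU factors bind, searched on both strands (ATTTGCA on the other strand).
Tas1r1, chr4:152038441-152038740, minus strand: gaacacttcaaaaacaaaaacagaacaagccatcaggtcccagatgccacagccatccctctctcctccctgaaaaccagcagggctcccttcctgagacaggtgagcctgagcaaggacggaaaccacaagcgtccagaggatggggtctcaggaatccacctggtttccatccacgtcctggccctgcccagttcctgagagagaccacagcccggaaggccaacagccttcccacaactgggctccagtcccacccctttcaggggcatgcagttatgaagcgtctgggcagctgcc
Tas1r2, chr4:139653288-139653587, plus strand: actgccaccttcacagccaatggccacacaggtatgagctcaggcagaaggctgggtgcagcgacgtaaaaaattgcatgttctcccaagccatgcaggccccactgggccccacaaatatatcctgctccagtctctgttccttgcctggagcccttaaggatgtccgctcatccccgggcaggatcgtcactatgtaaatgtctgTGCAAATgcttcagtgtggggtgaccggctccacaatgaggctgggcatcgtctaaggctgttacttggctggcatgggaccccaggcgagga
Tas1r3, chr4:155863304-155863603, minus strand: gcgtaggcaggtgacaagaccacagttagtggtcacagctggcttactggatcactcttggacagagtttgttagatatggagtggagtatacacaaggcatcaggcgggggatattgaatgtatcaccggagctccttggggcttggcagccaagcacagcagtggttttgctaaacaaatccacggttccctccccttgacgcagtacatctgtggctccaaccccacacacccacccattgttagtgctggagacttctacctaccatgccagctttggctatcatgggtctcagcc
The table of promoters held 10 windows for 8 of the genes. The letters were found in 1 of the 10, that of Tas1r2, 43 bases before the start, and in 4.02% of 32851 windows of the same length. The full octamer ATGCAAAT (ATTTGCAT on the other strand), which contains these letters, was in none of the 10 and in 1.74% of all windows. A match is a run of letters, not a bound site.

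By length-scaled level (RPKM, mean ± SD over 12 libraries), Trpm5 was at 1.43 ± 0.262, Gng13 at 1.19 ± 0.599, Plcb2 at 0.585 ± 0.161 and Dclk1 at 0.554 ± 0.112. Tas1r3 followed at 0.431 ± 0.226, Pou2f3 at 0.366 ± 0.146, Gnat3 at 0.200 ± 0.113 and Il25 at 0.117 ± 0.0985. Tas1r1 was at 0.0332 ± 0.0318 and Tas1r2 at 0.0271 ± 0.0250. Neighbours in this order differed by less than the larger SD of the pair, except Gng13 above Plcb2 and Pou2f3 above Gnat3. In terms of depth, Trpm5 rested on 122 to 379.4 reads a library and Dclk1 on 114 to 342, whereas Tas1r1 rested on 0 to 8 reads, Tas1r2 on 0 to 4 and Il25 on 0 to 7.

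**Figure D1:**
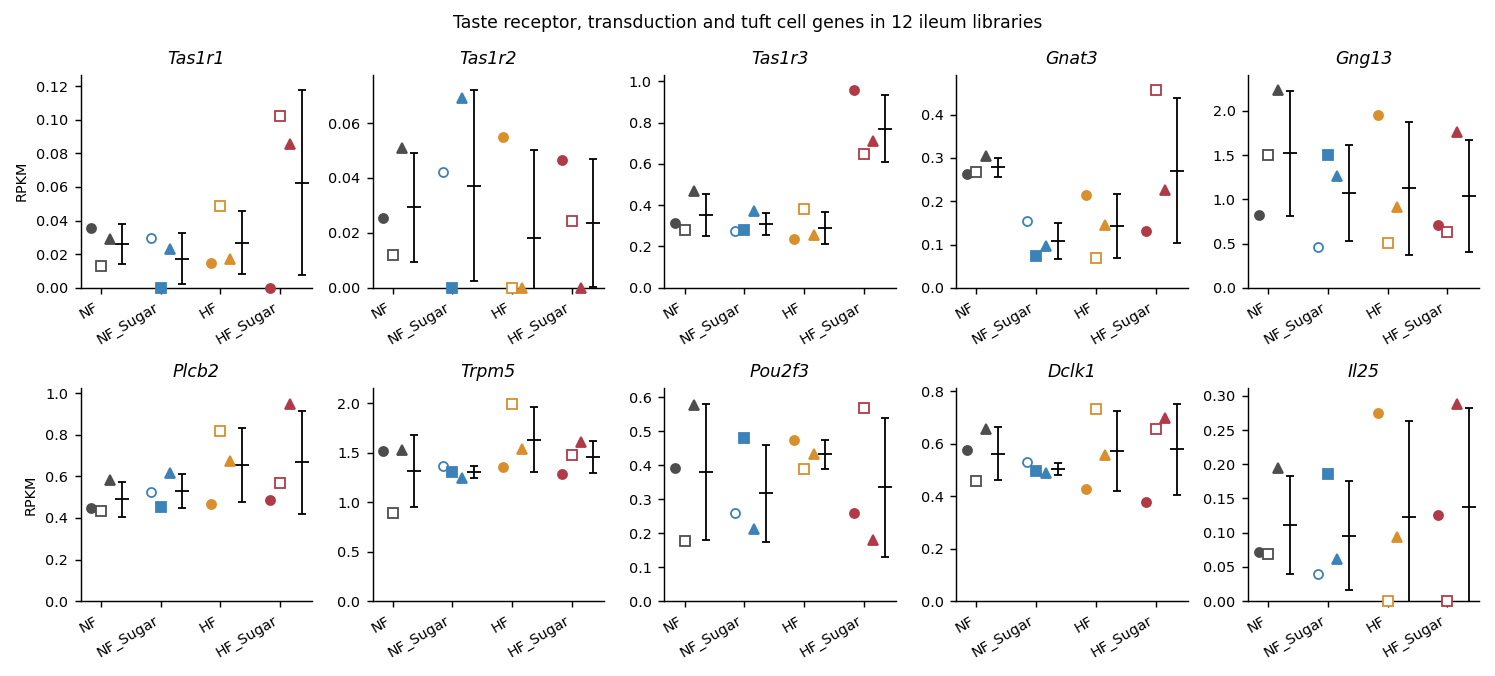
RPKM (vertical axis, from 0) of each of the 10 genes in the 4 diet groups (horizontal axis). Circles, squares and triangles are replicates 1, 2 and 3, open symbols are the 4 libraries that stood apart, and black bars show the mean ± SD of 3 libraries, cut at 0. The 3 HF_Sugar libraries lie above the other 9 for Tas1r3, and the groups overlap for most other genes.

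Tas1r3, the subunit common to sweet and umami receptors, was higher in HF_Sugar than in every other library. Tas1r3 was read at 0.314, 0.279 and 0.470 RPKM in NF replicates 1 to 3, at 0.274, 0.282 and 0.373 RPKM in NF_Sugar, at 0.238, 0.381 and 0.254 RPKM in HF, and at 0.956, 0.646 and 0.711 RPKM in HF_Sugar. The other 9 libraries overlapped among themselves, and the lowest HF_Sugar library lay above the highest of them. The group means were 0.354 ± 0.102 in NF, 0.310 ± 0.0547 in NF_Sugar, 0.291 ± 0.0783 in HF and 0.771 ± 0.164 RPKM in HF_Sugar (SD, n = 3). The ratio of means was 2.18 for HF_Sugar over NF, 2.65 over HF and 2.49 over NF_Sugar.

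The Tas1r3 values of HF_Sugar differed in kind from the other values, which touches every result on this gene. Turned back into reads, the 3 HF_Sugar values gave 75.85, 62.3 and 40.77 reads, none within 0.1 of a whole number. The other 9 libraries gave 18.08 to 43.08 reads, each within 0.1 of a whole number. The check over genes was limited to those matched to a single gene model, above 0 reads in every library and at most 300 reads in any. Among 7377 such genes with whole reads in those 9 libraries, 4 had fractions in all 3 HF_Sugar libraries (0.0542%). These were Tas1r3, Ccr7, Tcf7 and Tnf, named after their values were seen. The same pattern for NF, NF_Sugar or HF was found in 1 gene each.

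Some genes that overlap on the genome shared reads in the table, and for such pairs the shared fractions can be followed through both genes. Tas1r3 (chr4:155859268-155863362, minus strand) shares 36 of its 3523 exon bases with Dvl1 on the plus strand. In NF replicate 1 the table gave Tas1r3 43.08 and Dvl1 1752.91 reads, so the fractions completed each other. In the 9 libraries outside HF_Sugar the sum of both genes lay within 0.01 of a whole number. In the HF_Sugar libraries the sum was 1138.75, 1421.3 and 1001.74, which is 0.25 to 0.30 from a whole number. Trpm5, which shares 220 of 6398 exon bases with Tssc4, gave a whole sum with its neighbour in 12 of 12 libraries, HF_Sugar included. Other overlapping pairs were not summed over the libraries. In NF replicate 1 the fractions of Gng13 (24.67 reads) and its overlapping neighbour Chtf18 (285.9 reads) did not complete each other. Fractions that do not complete each other are therefore not particular to HF_Sugar. What set the Tas1r3 values of HF_Sugar apart was not tested, and no HF_Sugar library is without it.

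**Figure D2:**
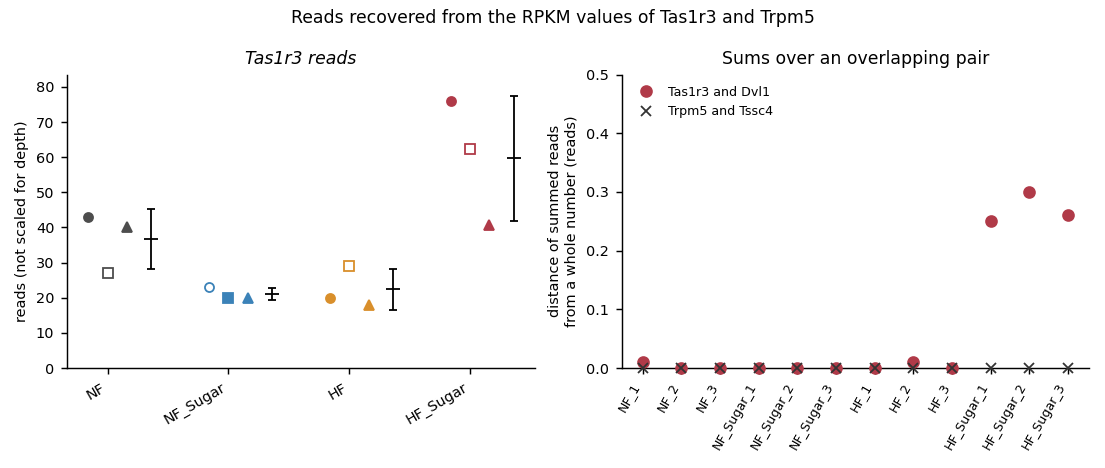
Left: reads behind each Tas1r3 value (vertical axis, not scaled for depth) by diet group, with replicates 1, 2 and 3 as circles, squares and triangles, open symbols for the 4 libraries that stood apart, and the mean ± SD in black. Right: distance of the summed reads of an overlapping gene pair from a whole number (vertical axis, in reads) for each library. The sum of Tas1r3 and Dvl1 leaves the whole numbers in the 3 HF_Sugar libraries, and the sum of Trpm5 and Tssc4 in none.

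The comparison of WD with ND asks which of these genes respond to fat and sugar together. On the log2(RPKM + 1) scale, which understates the change of low genes, Tas1r3 was 0.37 ± 0.095 (SE) higher in HF_Sugar than in NF (limma adjusted p = 0.999 over all genes), higher in 3 of 3 libraries. By a two-sided exact permutation test of RPKM, used for all pairs of groups, p was 0.1, the smallest that 3 against 3 libraries allow. At an adjusted p under 0.05, limma called 0 of the 10 genes and 0.0% of the 17667 genes, while 715 genes had an unadjusted p under 0.05 and 0 were called by limma-voom run on recovered reads. Groups that did not overlap were found for 1 of the 10 genes, Tas1r3, against 10.2% of all genes. All 3 HF_Sugar libraries lay above all 9 others for 1 of the 10 genes, against 0.532% of all genes, and this count has Tas1r3 in it, which reached the level for testing through HF_Sugar alone. A median of 0.01 over the 10 genes stood beside -0.01 over all genes tested.

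Tas1r3 was also higher with both agents than with either one. Its log2 difference was 0.45 ± 0.095 in HF_Sugar against HF (limma adjusted p = 0.676, exact permutation p = 0.1) and 0.42 ± 0.095 in HF_Sugar against NF_Sugar (adjusted p = 1.0, exact permutation p = 0.1). Neither passed the adjusted threshold. Among all genes 0.00566% were called in each of these 2 comparisons, which is the same 1 gene, the cytokine Il1b (limma adjusted p = 0.0315 and 0.0442), named after its values were seen. In the fit with the replicate number as a block, 0 genes were called in HF_Sugar against HF. Groups without overlap made up 9.83% of all genes in HF_Sugar against HF and 5.93% in HF_Sugar against NF_Sugar, and Tas1r3 was the 1 gene of the 10 in each. These comparisons share the HF_Sugar libraries, so they are not independent of each other.

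The interaction of fat and sugar, the part of the HF_Sugar level beyond the sum of the effects of fat alone and sugar alone, was 0.49 ± 0.13 for Tas1r3 (limma adjusted p = 1.0). Of the 10 genes, 2 had an unadjusted p under 0.05 for the interaction, Tas1r3 and Gnat3, against 2.35% of all genes tested. These shares are not like for like. Tas1r3 reached the level for testing through HF_Sugar alone. Gnat3 reached 0.5 RPKM in no library and was tested only because all 10 genes were kept. At an adjusted p under 0.05 the interaction was called in 0 of the 10 genes and in 0.0% of all genes.

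**Figure D3:**
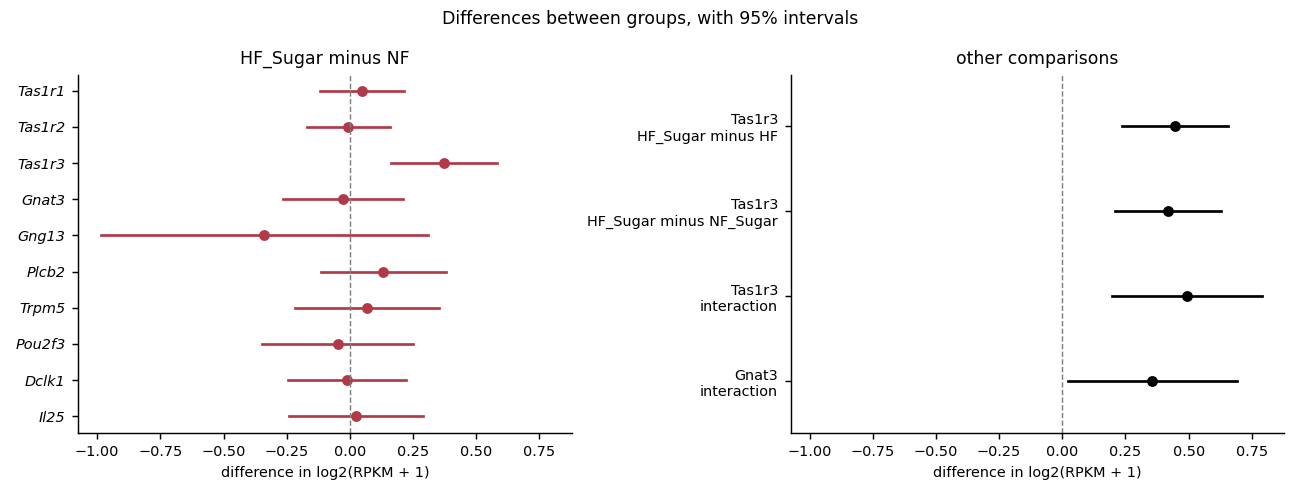
Differences in log2(RPKM + 1) (horizontal axis) with 95% intervals from limma, as points with bars. Left: HF_Sugar minus NF for the 10 genes. Right: Tas1r3 in HF_Sugar minus HF and minus NF_Sugar, and the interactions of Tas1r3 and Gnat3. The plotted intervals of Tas1r3, all from comparisons that include HF_Sugar, lie above 0 before adjustment for the number of genes, and the interval of Gng13 is the widest.

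The partners of TAS1R3 were barely detected. Tas1r1 was read at 0.0358, 0.0127 and 0.0289 RPKM in NF, at 0.0294, 0 and 0.0229 RPKM in NF_Sugar, at 0.0146, 0.0485 and 0.0173 RPKM in HF, and at 0, 0.102 and 0.0858 RPKM in HF_Sugar. The 2 highest values were both in HF_Sugar, on 8 and 4 reads, and the third HF_Sugar library had none. A count of 0 allows up to 3 reads, which is 0.0465 RPKM in that library, so the group spans the range of the others. The log2 difference of Tas1r1 from NF was 0.05 ± 0.075 in HF_Sugar (limma adjusted p = 0.999, exact permutation p = 0.4), with an interval of -0.12 to 0.21.

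Tas1r2, the sweet subunit, rested on 23.2 reads over all 12 libraries and was listed at 0 in 4 of them. The group means were 0.0294 ± 0.0198 in NF, 0.0371 ± 0.0348 in NF_Sugar, 0.0183 ± 0.0317 in HF and 0.0236 ± 0.0232 RPKM in HF_Sugar. No order of the groups can be read at this depth, and the log2 difference between HF_Sugar and NF was -0.01 ± 0.074 (limma adjusted p = 0.999, exact permutation p = 0.7). Tas1r2 (chr4:139653538-139670280, plus strand) shares 1510 of its 3047 exon bases with the gene model Gm21969 on the same strand, which was read at 0.553 RPKM, and its reads were whole in 5 of the 8 libraries above 0. The level of Tas1r2 is therefore uncertain beyond its counting error.

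Gnat3, the alpha subunit gustducin, rested on 2 to 17 reads a library and passed the adjusted threshold in no comparison. It was read at 0.264, 0.267 and 0.304 RPKM in NF, at 0.154, 0.0728 and 0.0963 RPKM in NF_Sugar, at 0.215, 0.0680 and 0.145 RPKM in HF, and at 0.130, 0.456 and 0.226 RPKM in HF_Sugar. The NF libraries lay above all libraries of NF_Sugar and of HF, and the HF_Sugar libraries spread on both sides of NF. In reads, Gnat3 had 14, 10 and 10 in NF, 5, 2 and 2 in NF_Sugar, 7, 2 and 4 in HF, and 4, 17 and 5 in HF_Sugar, all whole.

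Groups without overlap made up 5.86% of all genes in NF_Sugar against NF and 8.35% in HF against NF, and Gnat3 was the 1 gene of the 10 in each. Both comparisons share the 3 NF libraries, and 1 gene of 10 is close to the share among all genes. The exact permutation p was 0.1 in both, the smallest possible. At an adjusted p under 0.05, limma called 0 of the 10 genes and 0.0% of all genes in either comparison, with 294 and 588 genes at an unadjusted p under 0.05 and 0 by limma-voom. The Gnat3 interaction was 0.36 ± 0.15 (limma adjusted p = 1.0). Without the 4 libraries that stood apart, HF_Sugar replicate 2 with its 17 reads among them, the interaction was 0.23 and no longer at an unadjusted p under 0.05. The same loss was seen in the fit with the replicate number as a block and in 8 of 12 fits that left out 1 library. The summed reads per group, 34, 9, 13 and 26 in NF, NF_Sugar, HF and HF_Sugar, had 95% Poisson intervals of 23.6 to 47.5, 4.12 to 17.1, 6.92 to 22.2 and 17.0 to 38.1, which cover counting error only and are not scaled for depth.

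Gng13, the gamma subunit that pairs with gustducin, varied widely within every group. Gng13 was read at 0.819, 1.503 and 2.23 RPKM in NF, at 0.461, 1.499 and 1.26 RPKM in NF_Sugar, at 1.96, 0.505 and 0.910 RPKM in HF, and at 0.710, 0.635 and 1.76 RPKM in HF_Sugar. The coefficient of variation over 12 libraries was 50.5%, against 21.8% from counting alone. The log2 difference of Gng13 between HF_Sugar and NF was -0.34 ± 0.29 (limma adjusted p = 0.999, exact permutation p = 0.5).

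Gng13 (chr17:25717171-25719406, plus strand) shares 399 of its 773 exon bases, or 51.6%, with Chtf18, a gene of sister chromatid cohesion on the minus strand that was read at 1.45 RPKM. Its reads were whole in 1 of 12 libraries. Whether the authors' counting used the strand is not given in the sources used here. The values show reads shared between genes on opposite strands. In NF replicate 1, Trpm5 (minus strand) had 379.41 reads and Tssc4 (plus strand) 868.59, with a whole sum of 1248. For Gng13 and Chtf18 in NF replicate 1 the reads were 24.67 and 285.9, and these fractions did not complete each other. Whether reads from Chtf18 are part of the Gng13 values, and how large a part, was not tested, so the level of Gng13 is uncertain.

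Plcb2 and Trpm5, the phospholipase and the channel of the chain, were more even. Plcb2 was read at 0.447, 0.435 and 0.584 RPKM in NF, at 0.523, 0.450 and 0.616 RPKM in NF_Sugar, at 0.469, 0.820 and 0.675 RPKM in HF, and at 0.484, 0.570 and 0.950 RPKM in HF_Sugar. Its groups overlapped, and the log2 difference between HF_Sugar and NF was 0.13 ± 0.11 (limma adjusted p = 0.999, exact permutation p = 0.3), with an interval of -0.11 to 0.38.

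Trpm5 was read at 1.52, 0.892 and 1.52 RPKM in NF, at 1.37, 1.31 and 1.25 RPKM in NF_Sugar, at 1.36, 1.996 and 1.54 RPKM in HF, and at 1.28, 1.48 and 1.61 RPKM in HF_Sugar. The lowest and the highest library were NF replicate 2 and HF replicate 2, both among the 4 that stood apart. The log2 difference of Trpm5 between HF_Sugar and NF was 0.07 ± 0.13 (limma adjusted p = 0.999, exact permutation p = 0.7), and -0.06 without those 4 libraries.

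The tuft cell genes did not separate the diets. Pou2f3 was read at 0.391, 0.177 and 0.577 RPKM in NF, at 0.259, 0.481 and 0.212 RPKM in NF_Sugar, at 0.474, 0.389 and 0.433 RPKM in HF, and at 0.259, 0.568 and 0.179 RPKM in HF_Sugar. The NF libraries held both the lowest and the highest Pou2f3 value of all 12, and the HF_Sugar libraries spread nearly as widely. The log2 difference of Pou2f3 between HF_Sugar and NF was -0.05 ± 0.14 (limma adjusted p = 0.999, exact permutation p = 0.8).

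Dclk1 was read at 0.574, 0.456 and 0.655 RPKM in NF, at 0.531, 0.495 and 0.488 RPKM in NF_Sugar, at 0.427, 0.732 and 0.556 RPKM in HF, and at 0.377, 0.656 and 0.699 RPKM in HF_Sugar. The groups overlapped, and the NF_Sugar libraries lay closest together. The log2 difference of Dclk1 between HF_Sugar and NF was -0.01 ± 0.11 (limma adjusted p = 0.999, exact permutation p = 0.8), with an interval of -0.24 to 0.22.

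Il25, the cytokine by which tuft cells call type 2 immunity, was read on 33 reads in all and was listed at 0 in HF replicate 2 and HF_Sugar replicate 2. Its group means were 0.112 ± 0.0718 in NF, 0.0957 ± 0.0791 in NF_Sugar, 0.123 ± 0.140 in HF and 0.138 ± 0.145 RPKM in HF_Sugar. The spread within each group exceeded the differences between them. The log2 difference between HF_Sugar and NF was 0.02 ± 0.12 (limma adjusted p = 0.999, exact permutation p = 0.8).

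Other genes of the pathway, from lists drawn up by function, were counted in HF_Sugar against NF beside the 0.0% of all genes called. Of the taste transduction chain beyond the 10 genes, 9 of 20 were tested, 3 lay higher and 6 lower, 0 were called, and the median log2 difference was -0.01. The best-read were the G protein subunit Gnb1 at 95.2 ± 19.5 RPKM in NF and 80.3 ± 5.26 in HF_Sugar, the channel Trpm4 at 16.5 ± 3.16 and 16.9 ± 0.495, the ectonucleotidase Entpd2 at 15.9 ± 1.22 and 15.5 ± 1.76, and the calcium release channel Itpr3 at 7.31 ± 0.0729 and 7.75 ± 1.98. Several of these, Gnb1 above all, are used by most cells.

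Bitter taste receptors (Tas2r genes) were at the edge of detection. Of the Tas2r genes listed, 27 were in the table, 0 of these reached 0.5 RPKM in any library, and together they had 58 reads over the 12 libraries. The summed level ranged from 0.110 to 0.527 RPKM in NF and from 0.132 to 0.179 RPKM in HF_Sugar.

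The tuft cell markers beyond the 10 genes were present, and 37 of 44 were tested. In HF_Sugar against NF, 22 lay higher and 15 lower, 0 were called, and the median log2 difference was 0.03. The summed level of the list was 291.8 to 376.5 RPKM in NF, 285.4 to 373.5 in NF_Sugar, 305.4 to 359.1 in HF and 278.4 to 317.9 in HF_Sugar. The best-read were the keratin Krt18 at 184.8 ± 32.3 RPKM in NF and 141.7 ± 3.38 in HF_Sugar, the surface protein Cd24a at 30.4 ± 10.6 and 32.2 ± 10.6, Tppp3 at 17.9 ± 6.02 and 14.1 ± 4.18, and the receptor chain Il13ra1 at 14.4 ± 2.68 and 16.4 ± 1.33. Other cells of the ileum express Krt18 and Cd24a, so the summed level is no measure of tuft cells alone.

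Of the genes downstream of IL-25 in type 2 responses, 11 of 20 were tested, 6 lay higher and 5 lower, 0 were called, and the median log2 difference was 0.12. Clca1, a goblet cell product, was at 264.5 ± 65.9 RPKM in NF and 329.8 ± 90.3 in HF_Sugar, the transcription factor Stat6 at 19.2 ± 1.22 and 22.2 ± 1.82, and the receptor Il4ra at 16.9 ± 2.95 and 15.8 ± 1.39. The differences between these means were not called.

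Markers of other cells in the tissue were read beside these genes. The summed level of 7 leukocyte markers was 98.1 to 126.0 RPKM in NF, 98.4 to 182.6 in NF_Sugar, 78.0 to 203.0 in HF and 94.3 to 191.1 in HF_Sugar, with 6 of 7 higher in HF_Sugar than in NF and 0 called. Enteroendocrine markers, of a cell type that can carry T1R receptors, summed to 136.1 to 228.4 RPKM in NF and 142.2 to 279.4 in HF_Sugar, with 8 of 12 higher and 0 called. Ileal enterocyte markers (1 of 7 higher), smooth muscle (0 of 5), neurons and glia (1 of 5) and fibroblasts (4 of 5) also had 0 called. The most abundant was Fabp6, the ileal bile acid binding protein, at 6034 ± 3582 RPKM in NF and 5785 ± 3406 in HF_Sugar. None of these lists had a gene at 0 in every library, and their part in the Tas1r3 and Gnat3 values was not tested.

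Genes whose level moved most like a given gene over the 12 libraries were found by Pearson correlation of log2(RPKM + 1), among 16488 genes at a mean of 0.5 RPKM or more, as a description. For Tas1r3 the 5 closest were Csf2rb (0.92), Ccl2 (0.92), Il1b (0.92), Slfn5 (0.90) and Il6ra (0.89). Csf2rb and Il6ra are cytokine receptors, Ccl2 a chemokine, Il1b a cytokine and Slfn5 a member of the Schlafen family. All 5 had their highest group mean in HF_Sugar, for example Ccl2 at 1.67 RPKM against 0.176 in NF. Tas1r3 itself was highest in HF_Sugar, so ranking by likeness to it picks genes high there, and the shared peak is no separate result. The ranking also rests on the HF_Sugar values of Tas1r3 that do not give whole reads. The value of Il1b in HF_Sugar replicate 2 gave 141.46 reads, again not whole, and whole numbers within 0.1 in the other libraries.

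For Trpm5 the 8 closest were Syt17 (0.96), Cabin1 (0.93), Nfic (0.91), Slc6a7 (0.89), Bcl9l (0.89), Pcgf2 (0.87), Phf21a (0.86) and Hap1 (0.86), and 0 of them were in the tuft cell list. The points share the split between 4 and 8 libraries. In the 8 libraries alone the coefficients were 0.57 to 0.89. The tuft cell list did not follow Trpm5 as a whole. Of its 36 genes at that level, 25 had a positive and 11 a negative coefficient, with a median of 0.16 and a range from -0.54 (Il13ra1) to 0.81. Named after their values were seen, those nearest to Trpm5 among this list and the 10 genes were Sh2d6 at 0.81 (rank 31 of 16491), Ffar3 at 0.74 (rank 133), Dclk1 at 0.71 (rank 212) and Sh2d7 at 0.67 (rank 303). Gng13 was at -0.61 (rank 16283).

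Whether the better-read genes vary together was tested across the 8 libraries that did not stand apart, for 10 pairs of 5 genes. These libraries came from all diet groups and were permuted without regard to diet. Differences between diets are therefore part of each coefficient, and variation among mice on the same diet was not tested separately. Tas1r3 was among the 5 genes through its HF_Sugar libraries alone, so its pairs are not like for like with the others. The closest pair was Trpm5 with Dclk1, with Pearson's r = 0.69 (exact permutation p = 0.0554, adjusted p = 0.554) and Spearman's rho = 0.62 (exact permutation p = 0.115, adjusted p = 0.756). Without the 2 libraries farthest from the median of Trpm5, r was 0.55 in 6 libraries. None of the 10 pairs passed after adjustment, and the other 9 had r between -0.36 and 0.53. Tas1r3 was at r = -0.13 with Trpm5 (exact permutation p = 0.802, adjusted p = 0.891), and rho was -0.43 (exact permutation p = 0.299, adjusted p = 0.881).

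**Figure D4:**
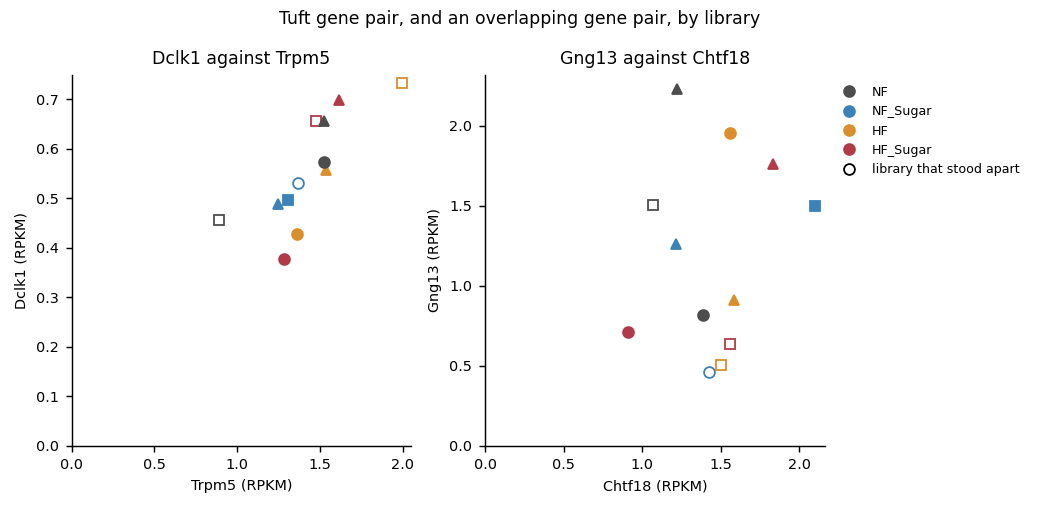
Left: Dclk1 against Trpm5, right: Gng13 against its overlapping neighbour Chtf18, both axes in RPKM, with 1 point per library, colored by diet group. Circles, squares and triangles are replicates 1, 2 and 3, and open symbols are the 4 libraries that stood apart. Dclk1 and Trpm5 are both highest in HF replicate 2 (r = 0.71 over 12 libraries), and Gng13 runs from 0.461 to 2.23 RPKM over Chtf18 values of 0.907 to 2.10 RPKM.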

How the data were processed

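Ileum RNA of 12 mice was sequenced on the Ion Proton by the study's methods, from RNA with an integrity number above 8 (5 µg input per the labels; the methods give another amount). The authors aligned reads with STAR in Partek Flow to mm10 and deposited RPKM values, a unit inferred here from the values. The table had 44231 rows, and 26 without a gene name, a bare number holding 0.135% of the RPKM of a library or less, were left out. All 12 per-sample files were identical to the table, and 40607 genes matched GENCODE symbols on GRCm38.

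The steps of low values gave library depth, and 93.0% to 94.5% of those values were whole reads within 0.03. RPKM was scaled by trimmed mean of M values, and log2(RPKM + 1) was fitted with limma 3.58.1 in R 4.3.3 (trend on, 4 groups, two-sided, Benjamini-Hochberg over 17667 genes, threshold 0.05). Levels are unscaled RPKM. Intervals used 10.5 degrees of freedom. Single genes also had exact permutation tests. Python 3.11.15 with scipy 1.17.1 did the rest. Scripts were tested on simulated data with known changes in HF_Sugar. In HF_Sugar against NF the fit called 30.3% of genes changed by a log2 of 1. It called 94% of those changed by a log2 of 2, with 2 false calls. The spread among libraries was set by hand there, so these shares need not hold for the real data. A gene that was not called may still differ.

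The 10 genes and the lists were chosen with earlier results of these data known. Other genes were named by rule: those most like Trpm5 (8) and Tas1r3 (5), the best-read of each list (up to 4) and genes overlapping the 10. Checks of fractions of reads were set up after the values were seen. Alternatives were no scaling, another pseudocount (0.1), no filter, a filter on the mean, limma-voom on recovered reads, library cluster as covariate or left out, the replicate block, a fit of the compared groups only, and leaving out single libraries. Same-numbered libraries deviated together in NF with HF_Sugar (r = 0.19 to 0.51) and HF with HF_Sugar (r = 0.13 to 0.56), which met the rule for pairing (every r over 0.1). NF with HF did not meet it (r = 0.064 to 0.55), nor did the 3 pairs of groups with NF_Sugar, and the labels state no pairing. Replicate 2 of NF, HF and HF_Sugar was among the 4 libraries that stood apart. The coefficients between these groups therefore include that split, and a pairing of mice cannot be told apart from it.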

Additional observations from a re-analysis of the deposited data

Results flagged for a closer look

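The interaction of fat and sugar had an unadjusted limma p under 0.05 for 2 of the 10 genes, against 2.35% of all genes tested. Outside HF_Sugar neither gene reached 0.5 RPKM in any library, so these shares are not like for like. For Tas1r3 the interaction was 0.49 on the log2(RPKM + 1) scale (limma adjusted p = 1.0). Mean RPKM went from 0.354 in NF to 0.310 in NF_Sugar without added fat and from 0.291 in HF to 0.771 in HF_Sugar with it, and the 3 HF_Sugar values do not give whole reads. For Gnat3 the interaction was 0.36 (limma adjusted p = 1.0). Its mean RPKM was 0.278 in NF, 0.108 in NF_Sugar, 0.143 in HF and 0.271 in HF_Sugar. The unadjusted p stayed under 0.05 in all 20 alternatives for Tas1r3, and for Gnat3 it did not in 10 of 20, the replicate block and 8 of 12 fits without 1 library among them. Neither passed after adjustment over all genes. With 3 libraries a group, single libraries were not tested for lying apart.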

How the results depend on the processing

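No setting called any of the 10 genes (0 calls over 95 combinations of comparison and alternative). Tas1r3 in HF_Sugar against NF stayed positive under all 15 alternatives (limma adjusted p from 0.499 to 1.0). The log2 difference was 0.29 to 0.42 in the alternatives on the log2(RPKM + 1) scale. It was 0.90 with pseudocount 0.1 and 1.07 with limma-voom, which are on other scales and not comparable in size. With the replicate block it was 0.37 (limma adjusted p = 0.982), and the replicate block changed no adjusted call among the 10 genes, though the Gnat3 interaction no longer had an unadjusted p under 0.05.

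Calls over all genes were few and unstable. Without the filter, 5, 4 and 4 genes were called in HF_Sugar, HF and NF_Sugar against NF (in all 3, 1700011D18Rik, Gm12131, Gm12578 and Tcrg-V6, and in the first also Ifng, named after their values were seen). The call of Il1b in HF_Sugar against HF and against NF_Sugar fell to 0 with pseudocount 0.1, no filter, limma-voom, the 4 libraries left out, the cluster covariate, the replicate block and the compared groups alone, and against NF_Sugar also without scaling. Leaving out 1 library gave 0 to 1 calls in HF_Sugar against NF, 0 to 2 in HF against NF, 0 to 1 in NF_Sugar against NF, 0 to 2 in HF_Sugar against HF, 0 in HF_Sugar against NF_Sugar and 0 to 1 in the interaction. The added calls came without NF replicate 1 or HF replicate 1.

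Differences near 0 changed sign. Trpm5 was -0.058 without the 4 libraries, Dclk1 0.010 without scaling, and Il25 -0.015 with pseudocount 0.1 and -0.51 with limma-voom. Over single libraries left out, the log2 difference of HF_Sugar from NF ranged from -0.022 to 0.011 for Tas1r2, -0.14 to 0.050 for Gnat3, -0.033 to 0.17 for Trpm5, -0.18 to 0.045 for Pou2f3, -0.061 to 0.077 for Dclk1 and -0.061 to 0.11 for Il25. The cause was not tested. Counts of a few reads limit Tas1r1, Tas1r2, Gnat3 and Il25.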
